A study of Rattus norvegicus with 4 samples.

Results

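Annexins are a family of proteins that bind membrane phospholipids in the presence of calcium. The 8 members described here, Anxa1, Anxa2, Anxa3, Anxa4, Anxa5, Anxa6, Anxa7 and Anxa11, were taken as the rows of the gene table with these symbols, 8 of 30058 rows, and all of them were found. Single-cell RNA sequencing was done on cells dispersed from the anterior pituitary of Sprague Dawley rats, with 1 pool of 4 pituitaries per sex and 2 lanes of the droplet instrument per pool. The females were in diestrus at postnatal day 44 and the males were at postnatal day 59, and no animal was treated. A lane is a technical replicate, so sex, pool and age cannot be told apart in any comparison of males with females. Every p-value from sums per lane measures the spread between lanes and not between animals. This covers the sexes, the groups within folliculostellate cells and leukocytes, and fits over types with lane as a block. The main fits over types used 1 sum per type and sex. Their p-values set differences between types against how much these vary between the female and the male pool, which also differ in age. They do not measure the spread between animals either. A difference that did not pass is therefore not a sign of equal levels. Of 7861 cells, 6852 were kept in 9 types set by the marker genes of the study: 2315 folliculostellate cells (FSC), 794 corticotrophs (C), 239 gonadotrophs (G), 88 thyrotrophs (T), 1889 somatotrophs (S), 485 lactotrophs (L), 548 leukocytes (Le), 133 endothelial cells (EC) and 361 erythrocytes (E). C, G, T, S and L are called hormone-producing cells (HPC). No annexin was among the markers that set the types.

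All annexins share a core of repeated domains that carries the calcium sites, and they differ in the stretch before it, which binds other proteins. Anxa1 is made under the control of glucocorticoids, is released by folliculostellate cells in the pituitary, and acts through formyl peptide receptors. Anxa2 pairs with S100a10 and binds tissue plasminogen activator at the cell surface. Anxa3 is abundant in myeloid cells, Anxa4 in epithelia, and Anxa5 is the protein whose binding to exposed phosphatidylserine is used to stain dying cells. In the pituitary, Anxa5 of gonadotrophs is known to respond to gonadotropin-releasing hormone. Anxa6 carries a duplicated core, and Anxa7 and Anxa11 carry long first segments that bind the EF-hand proteins Sri and Pdcd6.

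RefSeq promoter windows of the GRCr8 build, the 250 bases before the annotated start, were found for 7 of the 8 members; Anxa6 was not among them. The 4 windows below belong to the members whose levels were higher in FSC than in the mean of the HPC types. Capitals mark the letters found by a search of both strands. The search was for TATAAA (the TATA box), CCAAT (the CCAAT box), GGGCGG (the GC box), TGANTCA (the AP-1 site) and the glucocorticoid receptor site. They are printed 5′ to 3′ on the strand of the gene, which is the minus strand for Anxa1 (chr1:227303733-227303982), Anxa3 (chr14:13085598-13085847) and Anxa5 (chr2:121272697-121272946) and the plus strand for Anxa2 (chr8:78986002-78986251).
Anxa1: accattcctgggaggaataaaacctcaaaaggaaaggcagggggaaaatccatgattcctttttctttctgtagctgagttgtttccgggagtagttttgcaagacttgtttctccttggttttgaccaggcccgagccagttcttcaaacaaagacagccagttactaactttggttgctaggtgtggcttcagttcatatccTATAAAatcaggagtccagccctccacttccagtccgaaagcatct
Anxa2: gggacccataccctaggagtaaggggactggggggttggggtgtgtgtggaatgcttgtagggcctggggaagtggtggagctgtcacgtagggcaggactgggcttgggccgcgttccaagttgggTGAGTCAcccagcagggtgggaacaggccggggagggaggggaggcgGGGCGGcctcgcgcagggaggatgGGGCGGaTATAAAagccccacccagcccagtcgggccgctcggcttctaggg
Anxa3: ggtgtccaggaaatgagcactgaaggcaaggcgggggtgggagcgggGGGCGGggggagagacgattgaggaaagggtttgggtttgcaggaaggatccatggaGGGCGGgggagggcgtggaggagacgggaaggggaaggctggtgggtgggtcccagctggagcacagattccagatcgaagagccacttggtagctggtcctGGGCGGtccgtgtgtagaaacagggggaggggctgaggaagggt
Anxa5: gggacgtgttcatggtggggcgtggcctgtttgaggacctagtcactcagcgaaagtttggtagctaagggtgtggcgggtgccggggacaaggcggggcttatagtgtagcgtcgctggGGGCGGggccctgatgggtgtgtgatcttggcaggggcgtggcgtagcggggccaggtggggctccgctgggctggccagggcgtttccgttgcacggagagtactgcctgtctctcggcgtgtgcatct

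TATAAA was found in the windows of Anxa1 and Anxa2 and in none of the other 5, against 12.93% of 33469 windows of all genes. It lay from 46 to 41 bases before the start in Anxa1 and from 45 to 40 bases before it in Anxa2. The Anxa2 window also held TGAGTCA from 123 to 117 bases before the start, and TGANTCA was in 6.34% of all windows. GGGCGG was found 2 times in Anxa2, 3 times in Anxa3, 4 times in Anxa11 and 1 time each in Anxa4 and Anxa5, and at least 1 time in 30.47% of all windows. CCAAT was found in Anxa4 and Anxa7 and in 34.02% of all windows. The glucocorticoid receptor site was found in 0 of the 7 windows and in 0.3735% of all windows. The Anxa1 window held 45.2% G and C, below the median of 51.2% over all windows, and those of Anxa2, Anxa3 and Anxa5 held 67.2%, 64% and 65.2%. These matches describe the letters of the windows and were not tested as binding sites.

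Each count is a unique molecular identifier (UMI), which marks 1 captured RNA molecule near its 3′ end. The lanes held 1868 and 1861 cells from females and 2047 and 2085 from males, and pairs of lane values are given in that order throughout. The lanes held 18955509 to 24048021 UMIs, and the final cells had a median of 6482.5 UMIs in Le to 13659 in S. Female L had a median of 18301 UMIs and male L of 7268.5, and 30 cell barcodes occurred in more than 1 lane. The level of a gene in a cell type is given as counts per 1000000 UMIs of that type in a lane (CPM), and log2 fold changes come from edgeR fits on summed counts scaled by the trimmed mean of M values (TMM). The 4 FSC markers summed to 2970 CPM in FSC and to at most 47.6 in any other type. Fold changes against types near 0 depend on the prior count of the fit and are not bounds. An order of types by CPM can differ from that in the TMM-scaled fit.

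Summed over the 8 genes, annexins reached 1736 and 1854 CPM in the female lanes and 1633 and 1650 in the male lanes of FSC. In Le the sum was 1119 to 1240 over lanes and in EC 1037 to 1251, and these ranges overlapped each other but not that of FSC. Among HPC, the sum was 687 to 721 in C, 477 to 619 in S, 319 to 473 in L and 288 to 681 in T. In G it was 651 and 647 in the female and 1019 and 1053 in the male lanes. In E, which served as the type expected to hold free RNA only, the sum was 5.10 to 9.24. Globin markers summed to 656390 CPM in E. Levels, shares and thinned counts in E are therefore diluted and not on the same footing as those of other types. The somatotroph hormone Gh1 made up 28.2% and 31.3% of all counts in female and male S. Prl made up 31.5% and 17.9% in L, and Pomc 21.6% and 19.1% in C. Levels and thinned counts in these types are lowered by hormone RNA, and its part in the order of types was not tested. With every cell thinned to 2000 UMIs, FSC held a mean of 2.18 of the 8 annexins per cell, EC 1.76, Le 1.45, G 1.21, C 1.20, S 0.926, L 0.781 and T 0.636. In E the mean was 0.00831. At that depth 5.87% of FSC and 54.5% of T held no annexin UMI.

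**Figure D1:**
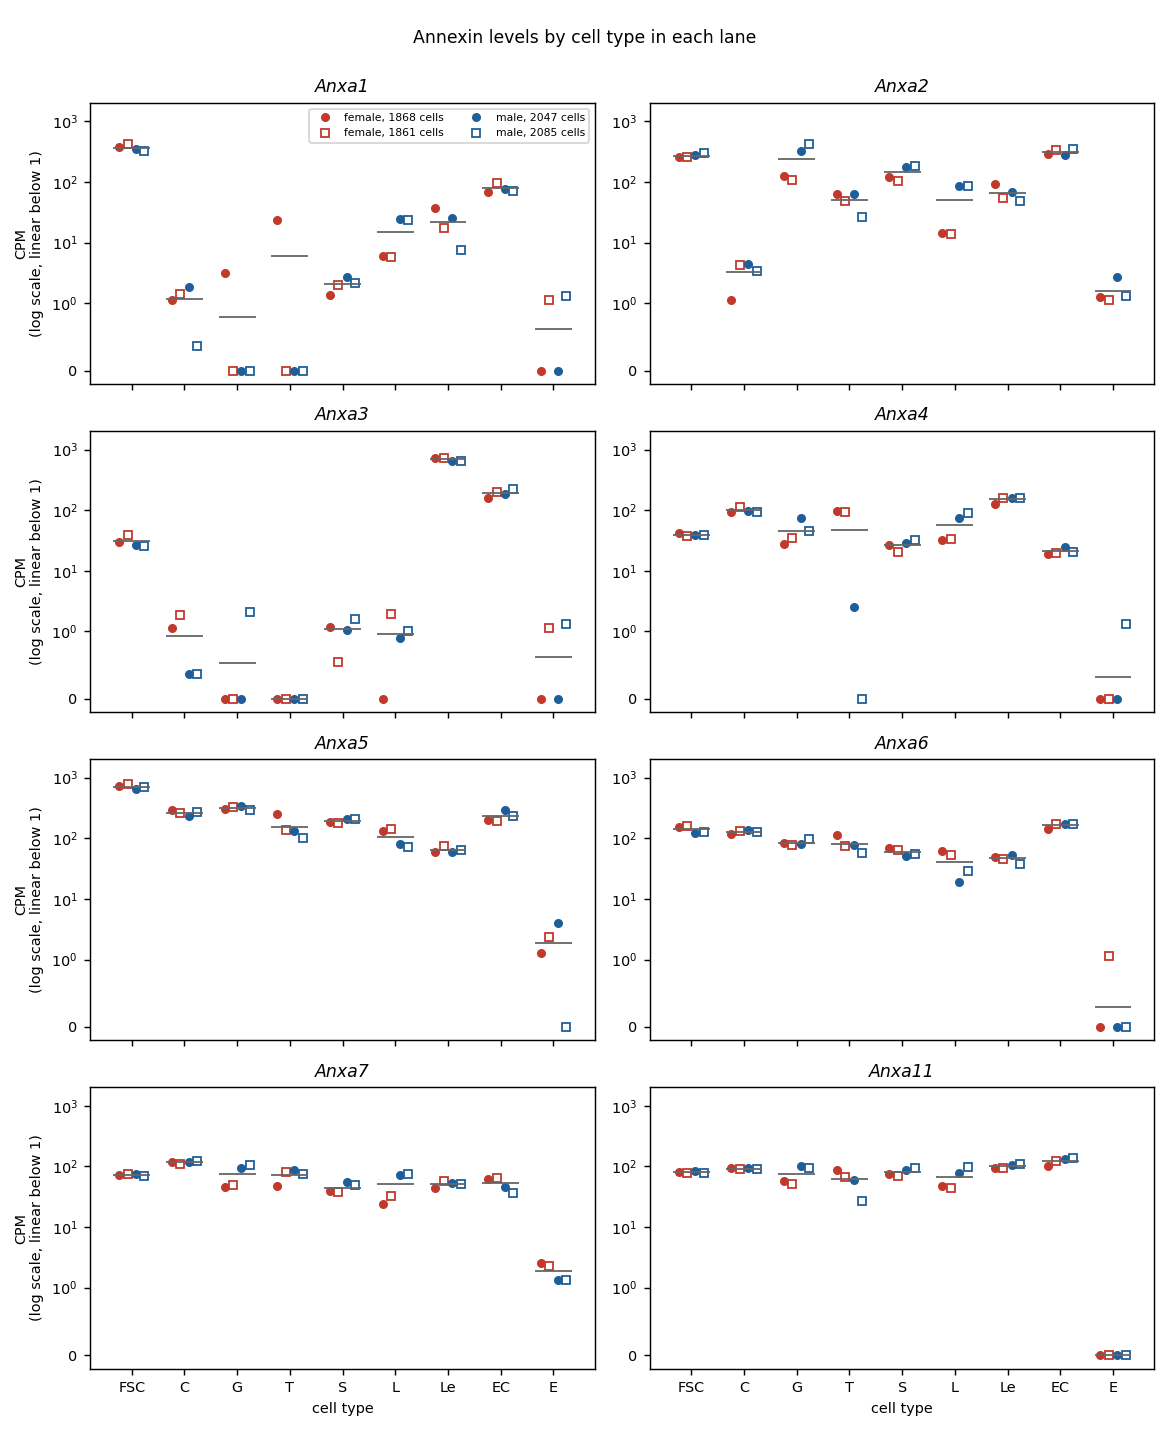
Level of each annexin, in CPM on an axis that is logarithmic above 1 and linear below, in 9 cell types. Each point is 1 lane, red for females and blue for males, with the cells per lane in the key, and the grey line is the mean of 4 lanes. Anxa1 points in FSC lie between 323 and 422 and those of Anxa3 in Le between 641 and 738, while Anxa11 is spread over all types except E.

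Cells were counted as expressing a gene where their normalised level was at or above a threshold set per gene from all cells. By that count, the annexin found in the largest share of FSC was Anxa5, in 84.8% (95% interval 83.2% to 86.2%, exact Clopper-Pearson), followed by Anxa1 in 76.5% and Anxa2 in 70.2%. EC held Anxa2 in 72.2% and Anxa6 in 61.7%, and Le Anxa3 in 75.2% and Anxa4 in 59.5%. Pooled over lanes, the leading member at these thresholds was Anxa7 in C (68.3%) and T (42.0%) and Anxa2 in G (58.2%) and S (52.5%). In L it was Anxa11 (39.6%). In each of these 5 types another member led in at least 1 lane. The threshold, on log10 levels, was 0.497 for Anxa5 but 0.193 for Anxa7, so the ranking depends on it. Counted from 1 UMI, Anxa5 led in all 5 types. It was found in 91.9% of C, 58.0% of T, 84.1% of G, 83.3% of S and 60% of L. In G, Anxa5 was found in 46.7% and 58.6% of cells in the female lanes, above Anxa2 in 45.3% and 40%. In the male lanes Anxa2 was found in 76.6% and 87.2% of G, above Anxa5 in 63.8% and 57.4%. The shares in E were at most 1.39%, with a median of 8246 UMIs per cell, most of them globin. Shares depend on depth: thinned to 2000 UMIs and counted from 1 UMI, Anxa1 was found in 47.8% of FSC and Anxa3 in 57.3% of Le. In C, Anxa7 was then found in 21.2% and Anxa5 in 39.8%. Intervals cover counting error only.

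**Figure D2:**
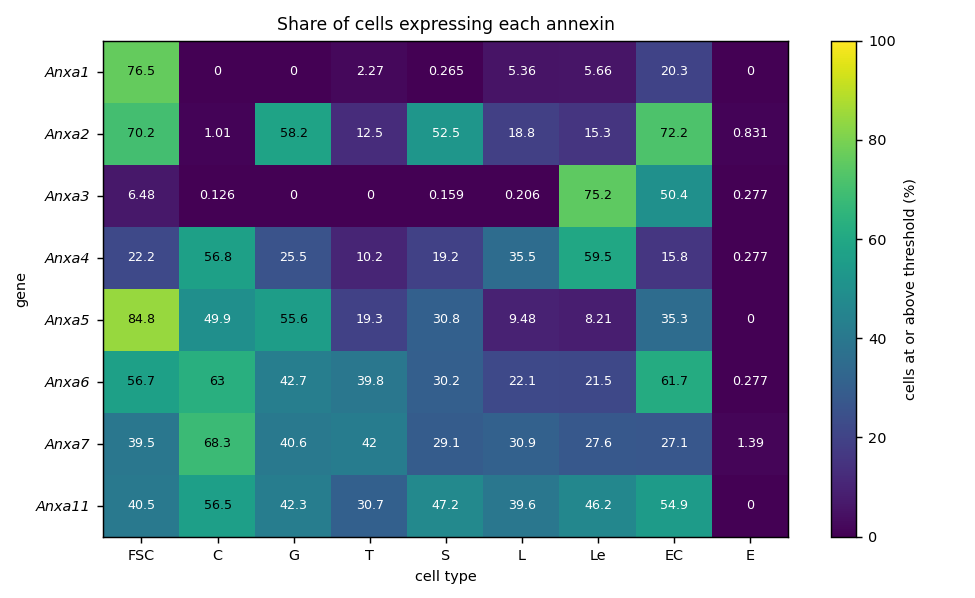
Share of cells (percent, colour and number) at or above the threshold of each annexin, by gene (rows) and cell type (columns). Anxa1 and Anxa3 are at 5.66% and 6.48% or less outside 2 types each, FSC and EC for Anxa1 and Le and EC for Anxa3, while Anxa6, Anxa7 and Anxa11 are above 20% in all types but E.

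Among the cell types kept, Anxa1 was the annexin most restricted to FSC, which held 6934 of its 7255 UMIs in these types (95.6%). FSC made up 33.8% of the cells kept. The level of Anxa1 in FSC was 384 and 422 CPM in the female and 348 and 323 in the male lanes. Of the types kept, EC came next at 67.3 and 97.8 in the female and 78.0 and 72.1 in the male lanes. The cells with pericyte markers, left out of these types, held 816 and 627 in the female and 458 and 247 in the male lanes, on 188 UMIs. Anxa1 is therefore not restricted to FSC among all cells captured. FSC and EC did not overlap, and they differed in the fit over types (log2 fold change 2.37, SE 0.38, adjusted p = 1.72e-04). Below EC no neighbours in the order Le, L, T, S, C and G differed at an adjusted p of 0.001. In S, C and G the level was at most 3.19 CPM in any lane, and in T the only 3 UMIs came from 1 female lane. Anxa1 was at or above threshold in 0 of 794 C, 0 of 239 G and 0 of 361 E, the last of which allows a share of up to 0.831%. The 11 Anxa1 UMIs of C can be set against 12.8 at the ratio of Anxa1 to the somatotroph hormone Gh1 in E (95% interval 1.55 to 46.3), and the 3 in G and 3 in T were inside their intervals too.

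Of C, G, T and L, only L exceeded that ratio, with 75 Anxa1 UMIs against 10.5 (95% interval 1.27 to 37.8), and S cannot be read in this way because it makes Gh1. The level in L was 6.09 and 5.74 CPM in the female and 24.5 and 23.6 in the male lanes. The 75 UMIs lay in 54 cells, 20 female and 34 male, with at most 3 in a cell. All 4 FSC markers were found in L, and they summed to 12.7 and 14.3 CPM in the female and 63.6 and 10.3 in the male lanes. L cells with an Anxa1 UMI held 95.9 CPM of these markers and those without held 12.3. The part of FSC RNA in the Anxa1 counts of L was not tested.

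The question of which genes set FSC apart from HPC was addressed by a contrast of FSC with the mean of the 5 HPC types. Of the 8 annexins, 4 were called at an adjusted p below 0.001, all higher in FSC, against 26.5% of 13625 genes called in either direction, 17.2% called higher and 9.27% called lower. The log2 fold change was 6.85 for Anxa1 (SE 0.28, adjusted p = 1.47e-11), 5.86 for Anxa3 (SE 0.33, adjusted p = 2.02e-09), 2.30 for Anxa2 (SE 0.26, adjusted p = 2.43e-06) and 1.59 for Anxa5 (SE 0.20, adjusted p = 8.56e-06). In single pairs of the edgeR fit, FSC exceeded C, T and L in Anxa2 by 6.19, 2.43 and 2.28. Anxa2 did not differ at 0.001 between FSC and G (0.22, adjusted p = 0.683) or S (0.39, adjusted p = 0.394). In Anxa5, FSC passed 0.001 against T and L but not against C, G or S. For Anxa6 the difference from the HPC mean was 0.61 (adjusted p = 0.0412). For Anxa4, Anxa7 and Anxa11 the 95% intervals were -1.29 to 0.24, -0.52 to 0.24 and -0.45 to 0.17. The median over the 8 members was 1.10, beside 0.09 over all genes. Leaving out the female lane with 1868 cells, which held all Anxa1 UMIs of G and T, gave 9.06 for Anxa1.

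Against the mean of the log levels of FSC, C, G, T, S and L, EC had 3 of 8 annexins called, all higher, beside 21.2% of all genes called, 13% higher and 8.18% lower. Anxa3 was higher by 7.39 on the log2 scale (SE 0.29, adjusted p = 2.14e-11), Anxa1 by 3.34 (SE 0.39, adjusted p = 3.76e-06) and Anxa2 by 1.98 (SE 0.28, adjusted p = 3.09e-05). Because this mean runs over 6 types, EC can be called higher in Anxa1 while FSC, 1 of the 6, held more of it. In Le, 5 of 8 were called beside 31.8% of all genes, with 4 members higher beside 18.5% of genes and 1 lower beside 13.2%. Anxa3 was higher by 9.97 (SE 0.22, adjusted p = 1.66e-14), Anxa1 by 2.20 (SE 0.40, adjusted p = 2.30e-04), Anxa4 by 2.11 (SE 0.33, adjusted p = 5.81e-05) and Anxa11 by 0.81 (SE 0.15, adjusted p = 3.18e-04). Anxa5 was lower in Le at -1.54 (SE 0.27, adjusted p = 1.41e-04). With library size in place of TMM, the calls of Anxa3 and Anxa5 in Le were left, and the median of all genes moved from -0.21 to -0.56. Without the female lane of 1868 cells, Anxa1 in Le was at 3.74.

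**Figure D3:**
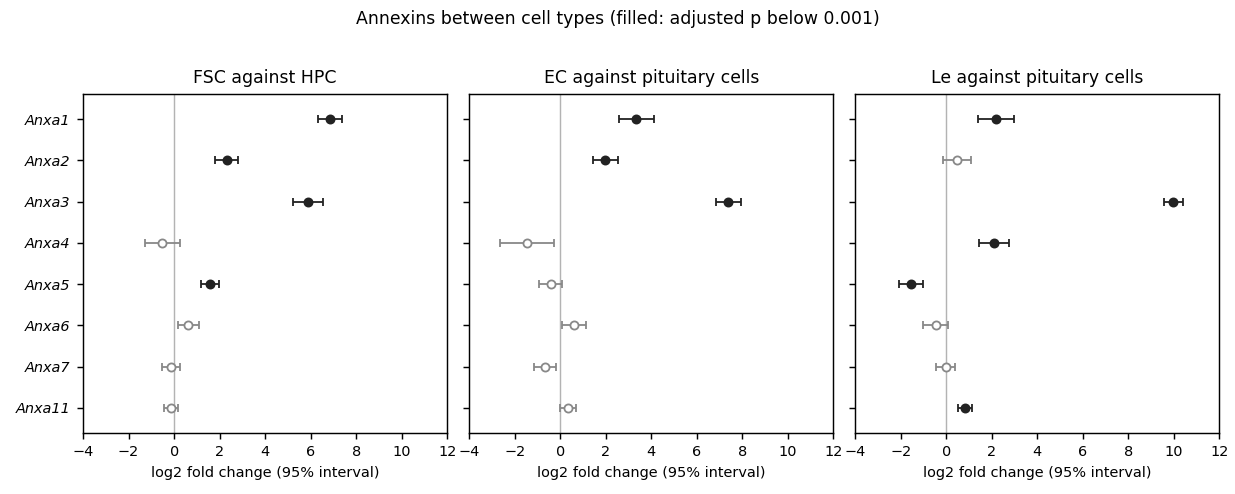
Log2 fold change of each annexin with its 95% interval in FSC against HPC and in EC and Le against the pituitary types. Filled points passed an adjusted p of 0.001. Anxa1 and Anxa3 are filled in all 3 panels, at 2.20 to 6.85 and at 5.86 to 9.97.

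Anxa2, the partner of S100a10, was at its highest levels in EC and FSC. It was called in 3 of the 5 comparisons of single HPC types with the mean of the others, which for G and S includes the low C. Its level was 285 and 339 CPM in the female and 284 and 345 in the male lanes of EC, and 257 and 257 against 281 and 300 in FSC. The lanes of both types overlapped, and EC and FSC differed by a log2 fold change of 0.06 (95% interval -0.67 to 0.79). Among HPC, the level was 126 and 110 in the female and 321 and 420 in the male lanes of G, and 120 and 104 against 177 and 181 in S. L held 14.5 and 13.9 in the female and 87.2 and 85.3 in the male lanes, and T 26.5 to 64.1 over lanes. In C the level was 1.13 and 4.23 in the female and 4.38 and 3.36 in the male lanes, below every lane of the other HPC types. The 32 Anxa2 UMIs of C can be set against 32.1 at the ratio of Anxa2 to Gh1 in E (95% interval 10.4 to 74.8). RefSeq lists pseudogenes of Anxa2 and Anxa7, and whether reads of these copies entered their counts was not tested.

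Each HPC type was also compared with the mean of the other 4. In C, 1 of 8 annexins was called beside 6% of all genes: Anxa2 was lower at -4.86 on the log2 scale (SE 0.47, adjusted p = 2.62e-06). In G, 1 was called beside 3.8% of all genes, with Anxa2 higher by 2.60 (SE 0.29, adjusted p = 1.58e-05). In S, 1 was called beside 3.47%, with Anxa2 higher by 2.39 (SE 0.28, adjusted p = 3.24e-05). In sums per lane with lane as a block, Anxa4, Anxa6 and Anxa7 were called in C as well and Anxa11 was called in S, at 0.54 (adjusted p = 1.50e-04). That fit treats technical lanes as replicates and adds no animals. In L, 1 was called beside 3.38%, with Anxa1 higher by 3.18 (SE 0.47, adjusted p = 2.52e-04), and it was no longer called with library size in place of TMM (adjusted p = 0.00109). Without the female lane of 1868 cells the Anxa1 difference in L was 6.01. In T, 0 were called by edgeR, beside 0.756% of all genes, and 0 by DESeq2. At an unadjusted p below 0.05 in edgeR there were 2, and the share of all genes at that limit is not given. The difference in Anxa2 between G and S was a log2 fold change of 0.17 (95% interval -0.55 to 0.89). Because the mean for G and S includes C, Anxa2 can be called there without passing against each type. In single pairs of the edgeR fit, G exceeded C by 5.97 and S exceeded C by 5.80 (adjusted p = 1.04e-06 and 1.13e-06). Neither passed 0.001 against L (2.05 and 1.88, adjusted p = 0.00217 and 0.00499) or T (2.21 and 2.04, adjusted p = 0.0128 and 0.0134). Every lane of G and S nonetheless lay above every lane of L and T.

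Anxa3 was the annexin of Le. Its level was 723 and 738 CPM in the female and 643 and 641 in the male lanes of Le. Le held 2532 of its 3370 UMIs in the types kept (75.1%). EC held 162 and 202 in the female and 184 and 226 in the male lanes, and FSC 30.1 and 39.3 in the female and at most 26.9 in the male lanes. The lanes of the 3 types did not overlap, and each step differed in edgeR. On the log2 scale Le exceeded EC by 2.58 (SE 0.27, adjusted p = 2.97e-06), EC exceeded FSC by 2.50 (SE 0.27, adjusted p = 6.12e-06) and FSC exceeded S by 4.16 (SE 0.33, adjusted p = 1.20e-07). In HPC the level was at most 2.10 CPM in any lane, and the counts of C, G, T and L lay within or below the range given by free RNA in E. T held 0 Anxa3 UMIs, which allows a level of up to 3.04. In FSC, 300 of 2315 cells held an Anxa3 UMI, with up to 28 in a cell. These cells held 8.79 CPM of the 4 Le markers and the other FSC held 8.37, and the Le markers summed to 7.10 to 10.6 over the FSC lanes.

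Anxa5 had its highest level in FSC, at 718 and 787 CPM in the female and 658 and 689 in the male lanes. G followed with 308 and 326 in the female and 347 and 287 in the male lanes, C with 296 and 258 against 234 and 273, and EC with 202 and 189 against 291 and 237. The lanes of FSC stood above all others, while those of G, C and EC overlapped. Next came S at 184 and 179 in the female and 211 and 205 in the male lanes, T at 103 to 249 over lanes, and L at 133 and 140 against 81.7 and 70.9. Le was lowest of the nucleated types at 58.8 to 75.2. No neighbours in this order differed at an adjusted p of 0.001, and FSC exceeded G by a log2 fold change of 1.06 (95% interval 0.47 to 1.64). In the same TMM-scaled fit EC lay below S, at -0.46 (95% interval -1.06 to 0.15). FSC held 13437 of the 23364 Anxa5 UMIs of these types (57.5%). The cells with pericyte markers, left out of these types, held 783 and 671 in the female and 690 and 515 in the male lanes.

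Anxa4, an annexin of epithelia, had its highest levels in Le and C. In Le it was 127 and 160 CPM in the female and 159 and 157 in the male lanes, and in C 94.6 and 111 against 98.2 and 94.4. Le stood above C in every lane, but the difference of 1.01 on the log2 scale did not pass the threshold (95% interval 0.08 to 1.93). Its mean over 4 lanes was 57.9 ± 28.9 (SD) in L, 45.4 ± 19.9 in G, 39.2 ± 1.97 in FSC, 27.0 ± 4.85 in S and 20.9 ± 2.67 in EC. In C against other HPC, Anxa4 was at 1.27 (adjusted p = 0.0230) and not called. It was called without a filter on low counts (adjusted p = 7.84e-11) and without imputed cells (3.41e-04). It was also called in sums per lane with lane as a block (7.09e-06), a fit that treats technical lanes as replicates. In T the values split by lane, at 96.2 and 92.5 in the female and 2.53 and 0 in the male lanes, and rested on 28 UMIs in 10 cells.

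Anxa6, which has a duplicated core, was spread over EC, FSC and C. Its mean over 4 lanes was 164 CPM in EC (140 to 175 over lanes), 140 ± 19.2 (SD) in FSC, 128 ± 8.12 in C, 84.3 ± 9.91 in G, 80.2 ± 23.4 in T, 59.0 ± 8.15 in S, 46.4 ± 6.45 in Le and 40.8 ± 20.3 in L. No neighbours in this order differed at an adjusted p of 0.001. C exceeded the other HPC by 0.88 on the log2 scale, which was not called (adjusted p = 0.0177). The difference was called without a filter on low counts (adjusted p = 5.46e-06). It was also called in sums per lane with lane as a block (4.86e-05), a fit that treats technical lanes as replicates.

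Anxa7, a binding partner of Sri, had its highest level in C, at 117 and 111 CPM in the female and 120 and 124 in the male lanes. The 4 C lanes lay above every lane of every other type. Elsewhere the mean over 4 lanes was 74.3 ± 31.7 (SD) in G, 73.2 ± 2.71 in FSC, 72.6 ± 16.8 in T, 52.3 ± 13.7 in EC, 51.5 ± 5.92 in Le, 50.7 in L (23.9 to 75.0 over lanes) and 44.8 ± 8.26 in S. In the TMM-scaled fit EC lay below Le, at a log2 fold change of -0.65 (95% interval -1.26 to -0.05), which did not pass 0.001. Against the other HPC, C was higher by 0.92 on the log2 scale, which was not called (adjusted p = 0.00253). The difference was called without a filter on low counts (adjusted p = 2.87e-06) and with E included in the fit (8.80e-04). It was also called in sums per lane with lane as a block (1.59e-07), a fit that treats technical lanes as replicates.

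Anxa11, which binds Pdcd6, had the narrowest range of lane means over the nucleated types. The mean over 4 lanes was 123 ± 17.7 (SD) CPM in EC, 101 ± 9.17 in Le, 91.7 ± 1.96 in C, 81.5 ± 10.9 in S, 80.2 ± 2.83 in FSC and 75.7 ± 25.6 in G, followed by L at 67.1 ± 26.3 and T at 60.8 ± 25.7. No neighbours in this order differed at an adjusted p of 0.001. This order is by CPM, and in the TMM-scaled fit EC lay below Le (log2 fold change -0.46, 95% interval -0.90 to -0.03). The fit also had C below S (-0.20) and G below L (-0.22). E held 0 Anxa11 UMIs, which allows a level of up to 0.952.

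Among 2315 FSC, 830 cells were at or above the threshold for Gpha2, a hormone alpha subunit, but not for Krt7, a keratin of simple epithelia, and 103 for Krt7 but not for Gpha2. The 1359 FSC that passed for neither gene, which were the majority, and the 23 that passed for both were left out of the comparison. Of the 8 annexins, 5 differed between the groups, beside 6.5% of 8164 genes. Anxa1 was at 429 and 508 CPM in the female and 436 and 403 in the male lanes of the Gpha2 group, and at 288 and 209 against 247 and 159 in the Krt7 group. Anxa5 was at 957 and 1029 in the female and 878 and 866 in the male lanes of the Gpha2 group, and at 485 and 545 against 439 and 461 in the Krt7 group. For both genes each Krt7 value was below each Gpha2 value. Anxa2 went the other way, at 180 and 151 in the female and 164 and 194 in the male lanes of the Gpha2 group and at 469 and 393 against 506 and 569 in the Krt7 group. Anxa3 was at 20.2 and 16.3 against 8.46 and 5.25 in the Gpha2 group and at 53.5 and 49.2 against 76.9 and 92.9 in the Krt7 group.

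In the fit with lane as a block, the Krt7 group was higher in Anxa2 by 1.44 on the log2 scale (SE 0.11, adjusted p = 9.35e-11) and in Anxa3 by 2.45 (SE 0.34, adjusted p = 2.42e-06). It was lower in Anxa1 at -1.03 (SE 0.13, adjusted p = 9.02e-07), in Anxa5 at -0.99 (SE 0.10, adjusted p = 2.45e-08) and in Anxa6 at -0.75 (SE 0.15, adjusted p = 6.84e-04). Anxa4 was at 1.01 (adjusted p = 0.00451), and Anxa7 and Anxa11 did not pass either. The call of Anxa6 was lost in 7 of 10 alternative settings and the call of Anxa3 was lost without the male lane of 2047 cells (adjusted p = 0.00101).

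Of 548 Le, 493 were at or above threshold for at least 2 of the complement C1q genes, which mark resident macrophages. Another 54 were below threshold for all of these genes and are called the no-C1q group. Anxa3 was at 834 and 800 CPM in the female and 715 and 704 in the male lanes of the C1q group. In the no-C1q group it was listed by 3 UMIs, all in 1 male lane (27.6 CPM). Anxa2 was at 4.32 and 17.5 against 28.0 and 14.1 in the C1q group. In the no-C1q group it was at 664 and 465 against 415 and 403. The groups did not overlap for either gene.

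Beside 7.13% of 4093 genes called, 2 of the 7 annexins tested differed: Anxa3 was higher in the C1q group by 6.63 on the log2 scale (SE 0.49, adjusted p = 2.91e-06) and Anxa2 was lower at -4.74 (SE 0.38, adjusted p = 5.06e-06). Without the male lane that held the 3 UMIs, the Anxa3 difference was 11.5. Anxa6 was at -1.73 (adjusted p = 0.00182). Anxa1 did not pass the filter on low counts and was not tested. It was at 11.1 CPM in the C1q group and at 112 in the no-C1q group, whose lanes ranged from 11.8 to 187. Anxa2 was found in 7.91% of the C1q group and in 81.5% of the 54 others.

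**Figure D4:**
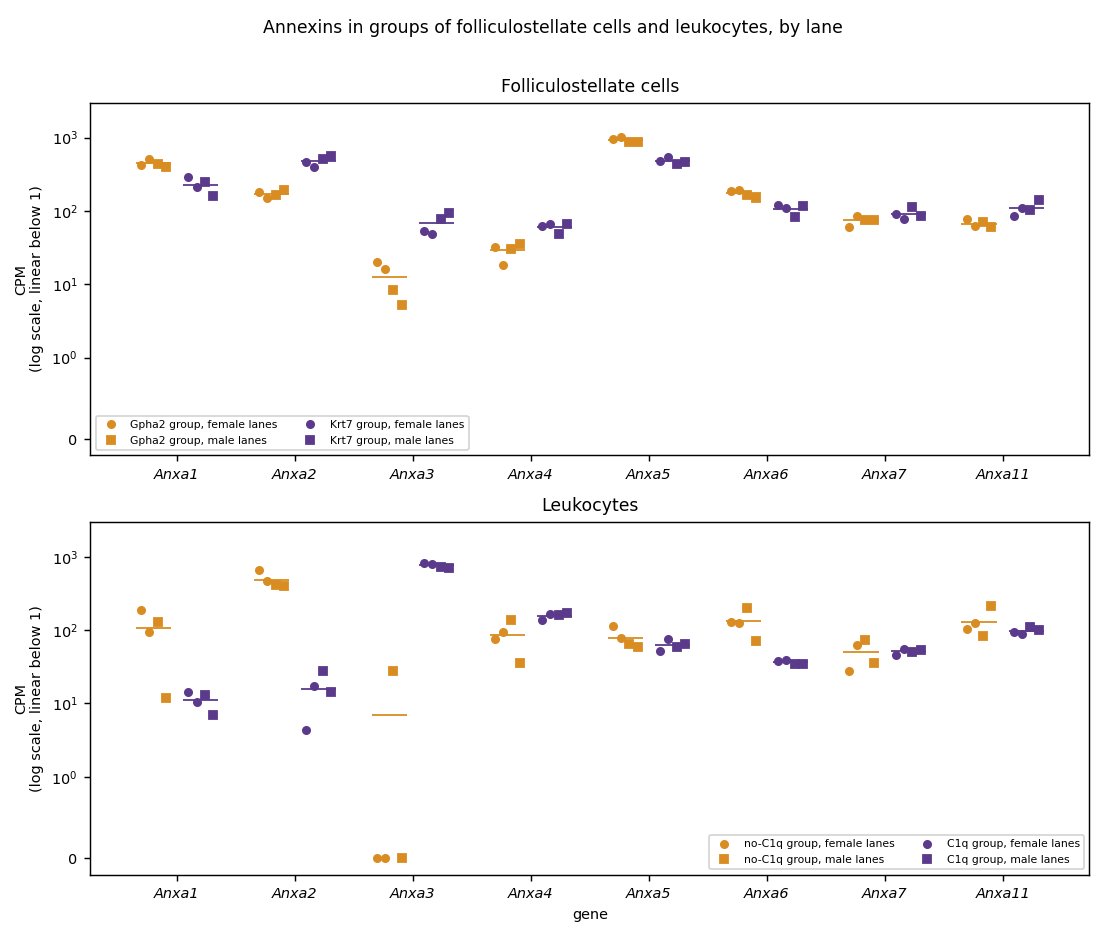
Level of each annexin by lane, in CPM on an axis that is logarithmic above 1 and linear below. The top shows the Gpha2 and Krt7 groups of FSC and the bottom the C1q and no-C1q groups of Le. Circles are female lanes, squares are male lanes and lines are means of 4 lanes. In FSC, Anxa1 and Anxa5 points are higher in the Gpha2 group and Anxa2 and Anxa3 points in the Krt7 group, and in Le the Anxa2 and Anxa3 points lie apart in opposite directions.

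The sexes were compared within each type on the 2 female and 2 male lanes. In L, 3 of 7 annexins tested were called, beside 16% of 8622 genes. Anxa2, at 14.5 and 13.9 CPM in the female and 87.2 and 85.3 in the male lanes, was higher in males by 1.95 on the log2 scale (SE 0.21, adjusted p = 1.14e-08). Anxa5, at 133 and 140 against 81.7 and 70.9, was lower in males at -1.48 (SE 0.13, adjusted p = 1.26e-10). Anxa6, at 62.3 and 53.1 against 19.1 and 28.8, was lower in males at -1.93 (SE 0.22, adjusted p = 3.31e-08). The 3 calls held in all 10 alternatives. Prl, the lactotroph hormone, made up 31.5% of all counts in female L but 17.9% in male L, and its part in the gap between levels and fitted fold changes was not tested. With library size in place of TMM the median of all genes moved from 0.02 to 0.67. Under that scaling the values were 2.61 for Anxa2, -0.82 for Anxa5 and -1.28 for Anxa6. Anxa1, Anxa4 and Anxa7 were at 1.37, 0.65 and 0.71 (adjusted p = 0.00208, 0.00463 and 0.00515) and were not called. L cells with an Anxa2 UMI held 15.0 CPM of FSC markers and those without held 24.5. The 3 pericyte markers, of which 204 of 209 UMIs were Dcn, summed to 14.1 and 8.60 in the female and 68.1 and 88.4 in the male lanes of L, and 24 female and 2 male L were proliferating. The part of these cells in the differences was not tested.

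In G, 1 of 6 annexins tested was called, beside 4.59% of 6888 genes. Anxa2 was at 126 and 110 CPM in the female and 321 and 420 in the male lanes and was higher in males by 1.39 (SE 0.15, adjusted p = 1.35e-05). Anxa7 was at 45.7 and 48.6 against 95.7 and 107 (log2 fold change 0.84, adjusted p = 0.0134) and was not called. Anxa5 is known to respond to gonadotropin-releasing hormone. It was at 308 and 326 CPM in the female and 347 and 287 in the male lanes of G. The mean of the lanes was 317 CPM in each sex. Its log2 fold change was -0.27 (SE 0.13, adjusted p = 0.204) and was not called.

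In S, 2 of 7 were called, beside 10.3% of 11930 genes. Anxa2 was at 120 and 104 CPM in the female and 177 and 181 in the male lanes and was higher in males by 0.62 on the log2 scale (SE 0.061, adjusted p = 2.88e-09). Anxa6 was at 68.1 and 63.3 in the female and 50.1 and 54.7 in the male lanes and was lower in males at -0.38 (SE 0.080, adjusted p = 5.18e-04). The Anxa6 call was lost in 6 of 10 alternatives.

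In FSC, 1 of 8 was called, beside 2.91% of 12896 genes. Anxa6 was at 153 and 159 CPM in the female and 122 and 125 in the male lanes, and was lower in males at -0.38 (SE 0.065, adjusted p = 9.38e-04). The call was kept in 2 of 10 alternatives. It was lost by DESeq2, with library size, without a filter, with outliers and doublets kept and without any 1 lane. Anxa1 and Anxa5 were at -0.31 and -0.20 (adjusted p = 0.00254 and 0.0170).

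In T, 1 of 6 was called, beside 1.53% of 3195 genes. Anxa4 was lower in males at -5.50 (SE 0.72, adjusted p = 1.06e-07), on 12 and 15 UMIs in the female and 1 and 0 in the male lanes. These UMIs were in 10 cells, 9 of them female, and 5 of the 10 were typed by their neighbours rather than by markers. Without cells typed in that way Anxa4 was too low to be tested, and it was not called by DESeq2 or without any 1 lane.

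In C 0 of 6, in Le 0 of 8 and in EC 0 of 7 annexins tested were called by edgeR, beside 0.604%, 0.345% and 0.814% of all genes. At an unadjusted p below 0.05 the counts were 1, 0 and 0, and the share of all genes at that limit is not given. The widest 95% intervals were -0.72 to 1.51 in C and -1.54 to 0.23 in Le, for Anxa2 and Anxa1, and -1.37 to 0.13 in EC, for Anxa7.

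A single fit asked whether the difference between male and female lanes varied over the 8 nucleated types. Beside 11.7% of 12704 genes, 5 of the 8 annexins were called: Anxa2 (adjusted p = 6.07e-10), Anxa5 (2.66e-09), Anxa6 (2.37e-07), Anxa4 (6.22e-07) and Anxa7 (8.73e-04). Anxa1 (0.0137), Anxa11 (0.0854) and Anxa3 (0.298) were not. The Anxa2 differences ran from -0.27 in Le to 1.95 in L, and those of Anxa5 from -1.48 in L to 0.41 in EC.

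**Figure D5:**
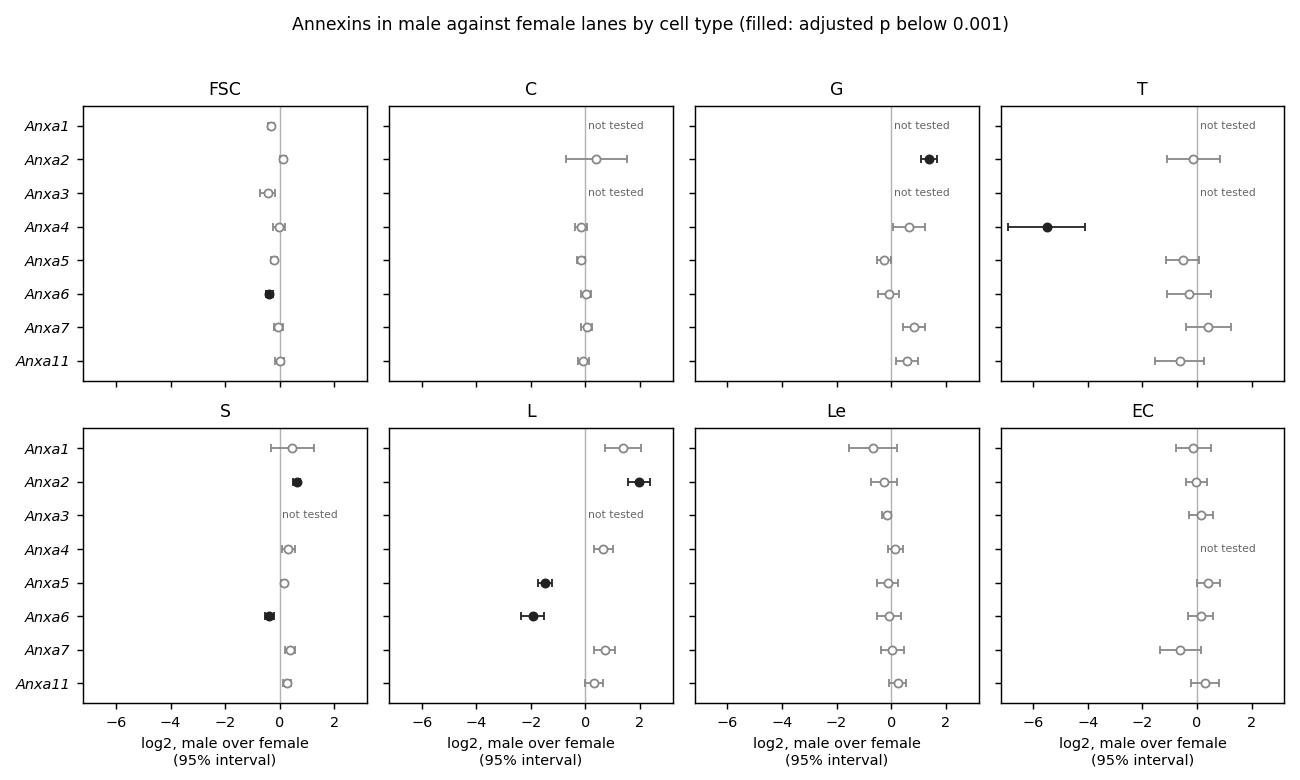
Log2 fold change of each annexin, male over female, with its 95% interval in 8 cell types, from 2 lanes of 1 pool per sex. Filled points passed an adjusted p of 0.001. Anxa2 is filled on the male side in G, S and L (0.62 to 1.95), Anxa6 on the female side in FSC, S and L (-1.93 to -0.38), and no point is filled in C, Le or EC.

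Partners of the annexins were read from a list of 25 genes, of which 21 passed the filter in the fits over types. In FSC against HPC, 8 were called higher and 0 lower, beside 17.2% and 9.27% of all genes, with a median log2 fold change of 0.86 beside 0.09 over all genes. The EF-hand partners S100a6 (6.91), S100a4 (5.62), S100a10 (3.55) and S100a11 (2.85) were among them, as were the scaffold Ahnak (6.51) and the tissue plasminogen activator Plat (5.28). In Le against the pituitary types, 10 were called higher and 1 lower, beside 18.5% and 13.2% of all genes. The urokinase Plau was at 10.9, its receptor Plaur at 8.70, the phospholipase Pla2g4a at 8.64 and S100a4 at 8.29, while Plat was lower at -2.09. In EC, 8 were called higher and 1 lower, beside 13% and 8.18% of all genes, with the membrane repair gene Dysf at 8.52 and Ahnak at 6.84.

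S100a10, the partner of Anxa2, was at 481 CPM in FSC, 397 in EC, 180 in L, 131 in Le, 37.7 in S, 33.9 in G, 23.0 in C and 8.12 in T. The level in L was higher than in other HPC by 3.25 on the log2 scale (SE 0.27, adjusted p = 9.32e-07). Between the sexes in L it went opposite to Anxa2, at 204 and 217 in the female and 116 and 117 in the male lanes (log2 fold change -1.50, SE 0.11, adjusted p = 3.93e-12). In G, where Anxa2 was higher in males, 2 of 12 partners tested were called beside 4.59% of all genes. S100a11 was lower in males at -1.30 and Sri was higher at 1.16. Between the Le groups, 6 of 17 partners tested were called beside 7.13% of all genes. In the C1q group of Le, S100a4, S100a6, S100a10, S100a11 and Ahnak were lower, at -6.28 to -3.09, and Plau was higher at 6.41. Between the Krt7 and Gpha2 groups, 2 of 17 partners tested were called beside 6.5% of all genes. S100a11 was higher at 1.01 and S100a4 lower at -3.49 in the Krt7 group.

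The glucocorticoid receptor Nr3c1, which acts upstream of Anxa1 in other tissues, was at 158 CPM in C, 102 in EC, 46.4 in Le, 40.2 in FSC, 28.9 in S, 14.3 in G and 1.11 in L. It was higher in C than in other HPC by 4.03 on the log2 scale (SE 0.16, adjusted p = 1.42e-10). In L it was lower than in other HPC at -4.34 (SE 0.32, adjusted p = 2.65e-07). FSC exceeded the mean of the HPC types by 1.07 (SE 0.17, adjusted p = 5.89e-05). That mean includes the low L, and C held more Nr3c1 than FSC. The relation of Nr3c1 to Anxa1 in these cells was not tested. The formyl peptide receptors Fpr1, Fpr2 and Fpr3 were too low to be tested, and Fpr2 had at most 27 UMIs in any type.

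Of the other annexin rows of the table, 1 was at a level that could be tested. Anxa10 was at 48.7 and 81.7 CPM in the female and 18.2 and 10.3 in the male lanes of L, on 305 UMIs. Among the rest of the 9 types Anxa10 was at most 4.04 in any lane. It was higher in L than in other HPC by 9.14 on the log2 scale (SE 0.79, adjusted p = 8.18e-06) and lower in male than in female L at -2.81 (SE 0.28, adjusted p = 3.54e-09). The female lanes of L both exceeded both male lanes, with 2 technical lanes per sex. Anxa10 was found in 22.6% and 25.2% of L in the female and in 6.87% and 3.94% in the male lanes, and in 1.86% of FSC. Anxa8 was listed with 8 UMIs, Anxa9 and Anxa10-2 with 1 each and Anxa13 with 0.

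Genes most like each annexin were found by the correlation of log2(CPM + 1) over 16 sums, 8 types in each of 2 sexes, as a description only, since all genes share these sums. For Anxa3 the leading genes were Itga9 (r = 0.990), Casp4 (0.987) and Rin3 (0.986). For Anxa1 they were Ccdc43 (0.923), Rnase4 (0.920) and LOC686753 (0.918), and for Anxa2 Slit3 (0.875), Atp2b4 (0.848) and Pdp2 (0.829). Anxa5 was led by Ddx17 (0.927), Tst (0.886) and Nhs (0.877), Anxa4 by Cdc5l (0.901), Zc3h3 (0.839) and Snx10 (0.837), and Anxa6 by Slc22a23 (0.912), Adarb1 (0.904) and LOC103691479 (0.878). Anxa7 was led by Mccc2 (0.910), Nub1 (0.889) and Ivd (0.882), and Anxa11 by Abhd17b (0.903), Tpr (0.888) and Psmd9 (0.878). No annexin was among the 3 leading genes of another. Between members, r ran from -0.27 for Anxa2 with Anxa4 to 0.76 for Anxa5 with Anxa6.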

How the data were processed

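The authors sequenced 10x 3′ libraries of dispersed anterior pituitary cells in 4 lanes, made UMI counts per gene and cell with Cell Ranger 2.1, equalised mapped depth between lanes and deposited 1 matrix of these counts, with NCBI rat gene models extended at their 3′ ends. That matrix, at 86742346 UMIs, was the only input. The deposited counts were used unchanged in tests.

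Lanes were assigned to a sex by the study's cells per lane. Eif2s3y UMIs numbered 0 and 1 in the female lanes and 2038 and 2100 in the male lanes, while Ddx3y, at 8 to 14 UMIs per lane, did not separate them. Following the study, 1009 cells were left out (mitochondrial, gene or UMI outliers, doublets, ambiguous cells and cells of no type), cells were typed by at least 1 or 2 markers, and 191 of the final cells were typed by 30 nearest neighbours. Doublets were called from simulated doublets at an adjusted p below 0.01. Expression thresholds followed Otsu's method with 256 bins.

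Counts were summed per type and sex (16 sums, E left out) or per type and lane and tested with edgeR 4.0.16 (quasi-likelihood, TMM, filterByExpr with a minimum count of 10) in R 4.3.3. The Benjamini-Hochberg adjustment ran over all genes and calls needed an adjusted p below 0.001. The interaction fit used 32 sums. The procedure was tested on data simulated at a set dispersion. Of simulated 2-fold differences between the sexes, 57.5% were recovered in C, 32.7% in Le, 24.5% in EC and 13.1% in T. Alternatives were DESeq2 1.42.0, its size factors, library size, no filter, an adjusted p of 0.05, E included, sums per lane with lane as a block, no imputed cells, outliers and doublets kept, and each lane left out. Limits for a count of 0 use 3 counts. Named genes were the 8 annexins, the other annexin rows, a list of 25 partners and the 3 genes most correlated with each member. The members and lists were chosen with earlier results of these data known. Sequences are from RefSeq (GRCr8), a build other than that of the files, so no coordinate was joined to the counts.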

Additional observations from a re-analysis of the deposited data

Results flagged for a closer look

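For 5 annexins, the difference between male and female lanes varied between cell types in a single edgeR fit over 32 sums, beside 11.7% of 12704 genes. The adjusted p of the test over types was 6.07e-10 for Anxa2, 2.66e-09 for Anxa5, 2.37e-07 for Anxa6, 6.22e-07 for Anxa4 and 8.73e-04 for Anxa7. Each sex was 1 pool, so these tests set the pools against the spread between lanes. Anxa2 was higher in male G, S and L (log2 fold changes 1.39, 0.62 and 1.95) and was at 0.14 in FSC and 0.39 in C. Anxa5 was lower in male L (-1.48) and was at 0.14 in S and -0.20 in FSC. Anxa6 was lower in male L (-1.93), S (-0.38) and FSC (-0.38) and was at 0.01 in C. The Anxa6 call held in all 10 alternatives in L but in 4 of 10 in S and 2 of 10 in FSC. Anxa4 was lower in male T (-5.50, on 28 UMIs in 10 cells) and was at 0.65 in L. Anxa7 was called in no single type and was at 0.84 in G, 0.71 in L and -0.62 in EC.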

How the results depend on the processing

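Of 224 counts of annexins called under an alternative, 183 stayed within 1.5 times the count reported, 16 were higher and 25 lower; no result with a call changed sign. The log2 fold changes of single annexins numbered 1462 in all, of which 1334 kept their sign and their side of the threshold. Another 74 changed sign with no call in either fit, 23 were newly called and 31 were no longer called. Changes in size were not part of this count. For the settings that follow, the share of all genes called is not given. The counts of annexins under them therefore cannot be read as more or fewer than among all genes. With an adjusted p of 0.05 the count became 4 in C against other HPC, 2 in S against other HPC, 3, 2, 5 and 6 between the sexes in FSC, G, S and L, and 4 between the Le groups. With library size in place of TMM it became 2 in Le against the pituitary types, 0 in L against other HPC, and 0, 2, 1 and 7 between the sexes in FSC, G, S and L, and the all-gene median moved by over 0.1 in several of these fits, from 0.01 to 0.29 between the sexes in G. DESeq2 gave 0, 0 and 1 between the sexes in FSC, T and S. Without a filter on low counts the count was 4 in C against other HPC, 0 and 1 between the sexes in FSC and S, and 5 between the Le groups. Without imputed cells it was 2 in C against other HPC, 0 between the sexes in T and 3 for the difference of sexes over types. With outliers and doublets kept it was 0 between the sexes in FSC and 4 between the Le groups. In sums per lane with lane as a block it was 4 in C and 2 in S against other HPC, and with E included 2 in C against other HPC. Leaving out each lane in turn gave 0 to 0 between the sexes in FSC and T, 1 to 2 in S, 3 to 4 between the FSC groups and 3 to 4 for the difference of sexes over types. The cause of these changes was not tested.

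At least 1 UMI in place of a threshold raised 65 of 72 shares, by up to 52.5 points, and thinning to 2000 UMIs lowered 58 of 72, by up to 47.1 points. No paired analysis was possible because the lanes carry no replicate number that ties a female to a male lane. This limit on pairing holds for the comparisons of the sexes only. Cell types and groups of FSC and Le shared lanes and were also fitted with lane as a block. Those fits rest on technical lanes as well. Depth limits the values in T (88 cells) and of Anxa1 and Anxa3 in HPC, where single lanes held 0 to 27 UMIs.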

Other observations

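Cells that the typing left out of the 9 types held annexins too. The 51 cells with pericyte markers held Anxa1 at 816 and 627 counts per 1000000 UMIs (CPM) in the female and 458 and 247 in the male lanes, and Anxa5 at 783 and 671 against 690 and 515. The Anxa1 range contains that of FSC, and the lanes rest on 8 to 18 cells each. The 60 cells with melanotroph markers, 56 of them male, held Anxa2 at 144 and 219 in the male lanes, where C held 4.38 and 3.36, although both make Pomc. Their Anxa1 rested on 6 UMIs. The 59 cells with markers of the posterior lobe held Anxa5 at 302 and 264 and Anxa3 at 62.6 and 80.0 in the male lanes. None of these values was tested.

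Among FSC, 35 cells held at least 14 of 39 cell cycle genes. In these, Anxa5 was at 449 and 398 CPM in the female and 408 and 461 in the male lanes, where all FSC held 658 to 787. Anxa3 was found with 1 UMI in the proliferating FSC. Their Anxa1 ranged from 364 to 472 over lanes, and their Anxa7 from 11.4 to 48.6, where all FSC held 70.5 to 76.1. The median proliferating FSC held 13271 UMIs and the median of the other FSC was 6869.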
